A study of Mus musculus with 9 samples.

Results

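The genes described here encode the synaptic vesicle and its release machinery, as measured in the hippocampus of 3xTG mice, a model of Alzheimer's disease, and of wild-type (WT) mice. Members were chosen by name. They are the Syt (synaptotagmin), Stx (syntaxin), Vamp, Stxbp, Cplx (complexin), Rims, Sv2 and Rab3 families, with Syn1, Syn3, Syp, Syngr3, Snap25, Snap23, Napa, Napb, Nsf, Unc13a, Unc13b, Bsn, Pclo, Slc17a6, Slc17a7 and Dnm1. These were 73 genes with 91 probes, of 16637 genes with 21020 probes that carry a symbol. Of the members, 17 had several probes and 56 had 1. Syn2, Syngr1 and Snap29 fell under the same rule and are not analysed here.

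The study hybridised 9 arrays of 2 colours, each with a test RNA against a reference RNA from another mouse. Every RNA came from the hippocampus of 1 female, and 8 mice were used, 2 for each genotype and age. The 3xTG mice, whose transgenes the strain label writes as APPSwe and tauP201L, were 3 or 12 months old. The human APP and tau transgenes of this line are driven in neurons by the Thy1 promoter. The WT mice, labelled 129SV with C57BL6, were 3 or 12 months old and carry none of these transgenes. There were 3 comparisons of 3 arrays each: WT ageing, with WT at 12 months over WT at 3 months; genotype at 3 months, with 3xTG over WT; and genotype at 12 months, with 3xTG over WT. No pair of mice was used on more than 1 array, but arrays shared mice. WT ageing shared both WT mice of 3 months with the genotype comparison at 3 months, and both WT mice of 12 months with the genotype comparison at 12 months. The genotype comparisons at the 2 ages shared no mouse. The RNA extraction text names WT mice for all samples, so genotype was taken from the source names and genotype tags.

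A nerve terminal stores transmitter in vesicles, which dock at the active zone through scaffolds such as Bassoon, Piccolo and RIM and are primed by Munc13. Release is driven by the SNARE complex, in which a vesicle SNARE (VAMP) zips up with syntaxin and SNAP-25 on the plasma membrane, under the control of complexins and SNARE-binding Stxbp proteins. Calcium entering the terminal is sensed by synaptotagmins, and NSF with its SNAP adaptors then takes the spent complexes apart for reuse. In the hippocampus this machinery serves glutamatergic and GABAergic synapses alike, and loss of presynaptic proteins is a known feature of Alzheimer's disease.

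The values are the deposited log ratios of each array, read as log2 of test over reference. The log base, the centring and the direction are not stated in the sources used here. Arrays of opposite dye within a comparison correlated positively over all probes, at 0.197 to 0.308, so the arrays of a comparison run one way, while the sign common to all rests on the labels. The median of each array before centring was 1.42, 2.34 and 1.96 in WT ageing, 0.84, -0.84 and 0.97 in genotype at 3 months, and -0.87, -0.87 and -1.71 in genotype at 12 months. Each array was therefore centred on its own median, and a value above 0 means higher relative to the other probes of that array. Values of different arrays are set side by side on that scale, so their overlap depends on the centring. Arrays listed 45.7 to 54.1% of the probes, with no deposited value between -0.5 and 0.5, so a gene with a deposited ratio near 0 is missing. Centring moves this gap by the median of each array. It then lies below 0 in WT ageing and above 0 in genotype at 12 months. Counts and means above and below 0 leave out the genes in the gap, which are mostly on 1 side. Arrays 2 and 3 of genotype at 3 months share 3xTG mouse 22, arrays 1 and 2 of genotype at 12 months share 3xTG mouse 4, and arrays 1 and 3 of WT ageing share WT mouse 25. The number of arrays and mice limits the precision, and in whole hippocampus fewer cells of a type and less RNA per cell cannot be told apart. Ratios give no level, so the presence of hippocampal markers could not be checked.

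Release genes lay on both sides of the array median in every comparison, and none passed the test described below. Snap25 was above the array median on 3 of 3 arrays in WT ageing and in genotype at 3 months, and close to it at 12 months. Syn1 and Stx1a lay far below it on every array that listed them in WT ageing and in genotype at 3 months, and close to it at 12 months. Before centring both genes were below 0 on every array that listed them, at 12 months too. Snap25 was also below 0 on all 3 arrays at 12 months before centring. Napb, Stxbp5, Stx7 and Vamp4 lay above the array median on all 3 arrays of genotype at 12 months. Of the 73 members, 1 was listed on all 9 arrays, 19 on 7 or 8, 39 on 4 to 6, and 14 on 1 to 3. The map of members by array shows these values and gaps.

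**Figure D1:**
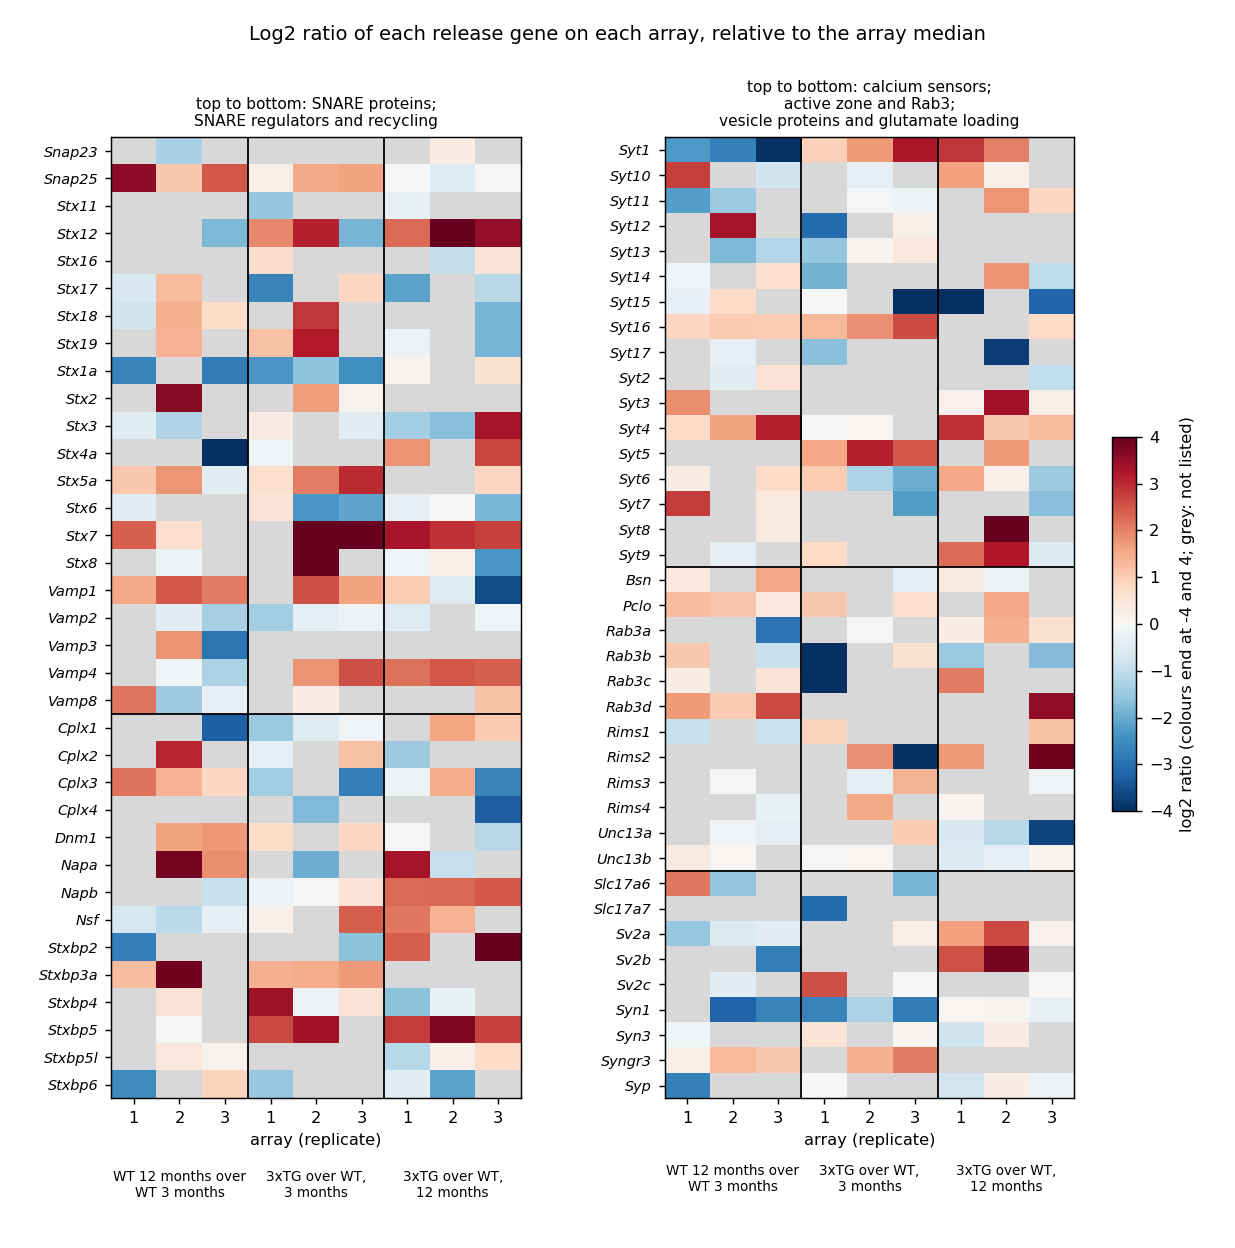
Centred log2 ratio of each of the 73 release genes (rows, by role) on each of the 9 arrays (columns, by comparison), with red above and blue below the array median and grey where no value is listed. Syn1 and Stx1a are blue wherever listed in the first 2 comparisons and pale in the third, and Napb, Stxbp5, Stx7 and Vamp4 are red on all 3 arrays of the third.

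A gene was tested with limma when it was listed on at least 2 arrays of each comparison. This left 19 of the 73 members (26.0%) and 3944 of all genes (23.7%), and 54 members were not tested. No member passed an adjusted p of 0.05 in any comparison, and the share of all genes that passed was 0% in each of them. At an unadjusted p under 0.05, WT ageing had 4 members, against 14.1% of all genes tested, with 1 above 0, against 3.32%, and 3 below 0, against 10.8%. Genotype at 3 months had 5 members, against 16.8% of all genes, with 3 above 0, against 10.5%, and 2 below 0, against 6.29%. Genotype at 12 months had 4 members, against 18.1% of all genes, with 3 above 0, against 15.4%, and 1 below 0, against 2.74%. Shares of the 19 members are coarse beside these shares of 3944 genes. Standard errors of the members' fitted log2 ratios lay between 0.76 and 1.26. Simulated data of the same design were made with a variance between mice 0.5 times that between arrays, above the 0.115 of the main fit. On these data an unadjusted p under 0.05 was reached by 28% of genes given a log2 difference of 2. Of genes given a difference of 4, 82% reached it.

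The 21 SNARE genes were Snap23, Snap25, 14 syntaxins and 5 Vamp genes, and 8 of them were tested. Their 115 array values lay between -4.13 and 10.64, with a median of 0.31. Snap25 encodes SNAP-25, the plasma membrane SNARE of regulated release, and was the one member listed on every array. Its centred log2 ratios were 3.59, 1.06 and 2.49 in WT ageing, 0.22, 1.50 and 1.62 in genotype at 3 months, and -0.05, -0.52 and 0.03 in genotype at 12 months. In WT ageing and in genotype at 3 months all 3 arrays were above the array median, and at 12 months the 3 arrays lay on both sides of it. The fitted log2 ratio was 2.52 ± 0.76 in WT ageing (SE, n = 3 arrays, limma adjusted p = 0.165) and 1.22 ± 0.76 in genotype at 3 months (SE, n = 3 arrays, limma adjusted p = 0.434). With arrays centred on the abundant transcripts the Snap25 values of genotype at 3 months were no longer all above 0. Those of genotype at 12 months were then at -2.09, -2.59 and -1.17, and before centring at -0.92, -1.39 and -1.68.

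Stx1a encodes syntaxin-1A, the plasma membrane partner of SNAP-25. It was at -2.66 and -2.79 on the 2 arrays of WT ageing that listed it, at -2.34, -1.60 and -2.45 in genotype at 3 months, and at 0.15 and 0.60 on the 2 arrays of genotype at 12 months. Its values in the first 2 comparisons did not overlap with those of the third relative to the array medians. Before centring they did, at -1.25 and -0.84 in WT ageing and -0.72 and -1.11 in genotype at 12 months, and all 7 values were below 0. The fitted log2 ratio was -2.73 ± 0.92 in WT ageing (SE, n = 2 arrays, limma adjusted p = 0.232) and -2.16 ± 0.78 in genotype at 3 months (SE, n = 3 arrays, limma adjusted p = 0.228). Both arrays of WT ageing that listed Stx1a were of WT mouse 25 at 12 months. The first 2 comparisons both have WT mice of 3 months as the reference. Vamp2, the main vesicle SNARE of forebrain synapses, was at -0.41 and -1.33 in WT ageing, at -1.41, -0.34 and -0.21 in genotype at 3 months, and at -0.51 and -0.16 in genotype at 12 months. All 7 values were below 0 under this centring, and none of its fitted values exceeded its SE. Vamp1, a vesicle SNARE close to Vamp2, was at 1.52, 2.45 and 2.08 in WT ageing, at 2.58 and 1.62 in genotype at 3 months, and at 1.02, -0.51 and -3.59 in genotype at 12 months. The values of genotype at 12 months were spread over more than 4 log2 units.

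Stx7 and Vamp4 act in endosomal and Golgi membrane traffic rather than in fast release. Stx7 was at 2.40 and 0.67 in WT ageing, at 4.80 and 10.64 in genotype at 3 months, and at 3.30, 2.93 and 2.72 in genotype at 12 months. Every listed value was above 0, and the 2 of genotype at 3 months, both from 3xTG mouse 22, differed by almost 6 log2 units. The fitted log2 ratio of Stx7 was 7.72 ± 1.26 in genotype at 3 months (SE, n = 2 arrays, limma adjusted p = 0.082) and 3.33 ± 1.07 in genotype at 12 months (SE, n = 3 arrays, limma adjusted p = 0.162). The value at 12 months was 5.04 without array 3 and 1.67 with arrays centred on the abundant transcripts. Vamp4 was at -0.16 and -1.27 in WT ageing, at 1.80 and 2.59 in genotype at 3 months, and at 2.21, 2.48 and 2.41 in genotype at 12 months. The 2 values of genotype at 3 months were both from 3xTG mouse 22. The 5 genotype values of Vamp4 lay within a log2 unit of each other and above those of WT ageing under this centring only. Before centring they ran from 0.70 to 3.56, against 2.18 and 0.69 in WT ageing. The fitted log2 ratio of Vamp4 was 2.45 ± 0.79 in genotype at 12 months (SE, n = 3 arrays, limma adjusted p = 0.163). Stx12, an endosomal syntaxin that was not tested, was at 2.25, 4.61 and 3.51 in genotype at 12 months, and at 1.93, 3.09 and -1.86 in genotype at 3 months. Of its 2 probes, 1 alone gave the values at 12 months and was at 3.03 and 3.09 on arrays 1 and 2 at 3 months. The value of -1.86 came from the other probe alone, so the 2 ages rest on different probes in part.

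The remaining SNARE genes were less complete. Stx5a, a syntaxin of traffic between endoplasmic reticulum and Golgi, was at 0.65, 2.04 and 2.97 in genotype at 3 months. Stx6, a syntaxin of the trans-Golgi network, was at -0.32, -0.02 and -1.82 in genotype at 12 months. These were the other SNARE genes with 1 sign on all 3 arrays of a comparison. Over the SNARE genes listed on at least 2 arrays, 7 of 12 means were above 0 in WT ageing, 8 of 13 in genotype at 3 months and 6 of 14 in genotype at 12 months. Of all genes so listed, 48.4%, 49.4% and 57.2% had means above 0.

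**Figure D2:**
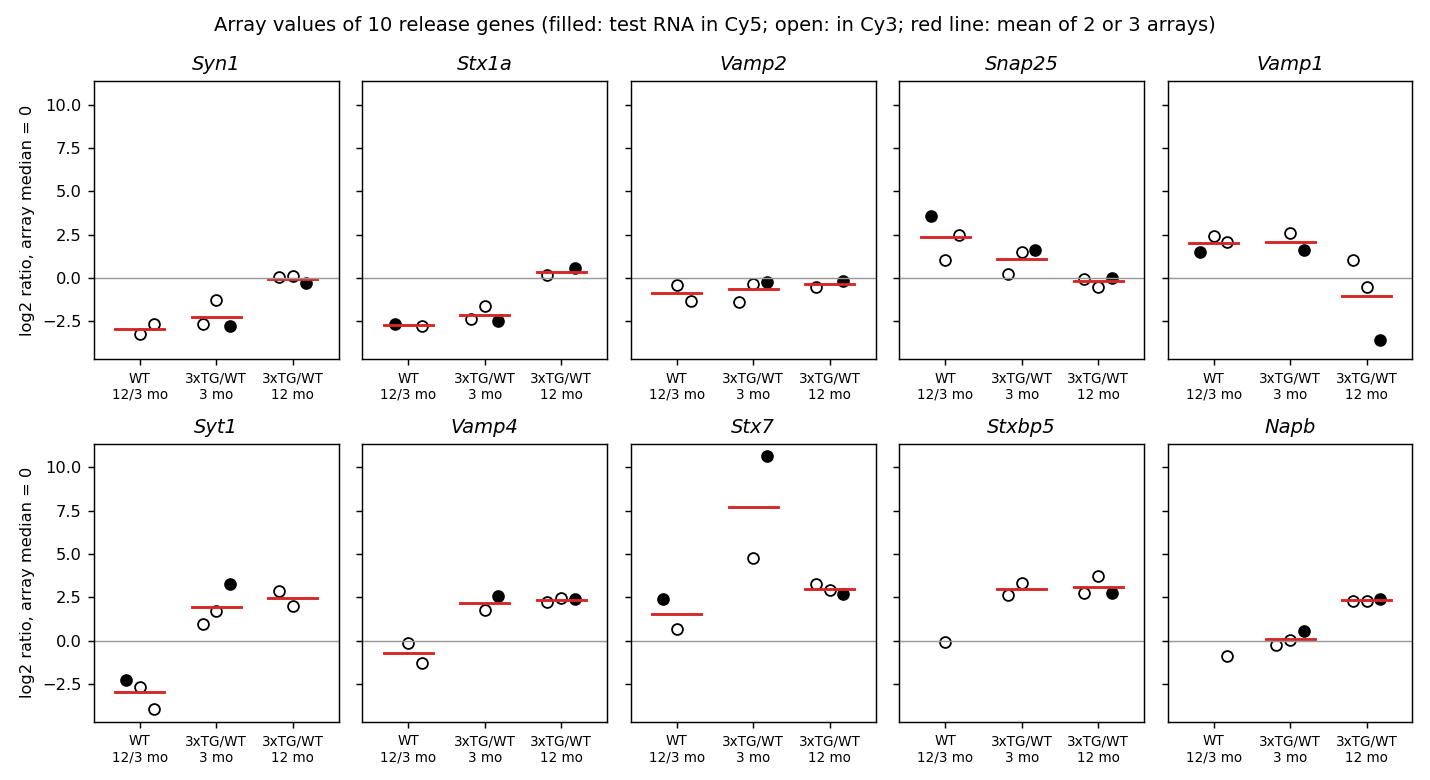
Centred log2 ratio (vertical axis) of 10 release genes on each array of the 3 comparisons (horizontal axis), with filled points where the test RNA was in Cy5, open points where it was in Cy3, and a red line at the mean of 2 or 3 arrays. Syn1 and Stx1a sit near -2.5 in the first 2 comparisons and near 0 in the third, and the 3 Napb arrays of genotype at 12 months lie between 2.28 and 2.44.

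The 14 regulators and recycling genes were 6 Stxbp genes, 4 complexins, Napa, Napb, Nsf and Dnm1, of which 3 were tested. Napb encodes beta-SNAP, the brain-enriched adaptor that brings NSF to spent SNARE complexes. It was at 2.28, 2.30 and 2.44 in genotype at 12 months, at -0.23, 0.03 and 0.59 in genotype at 3 months, and at -0.90 on the 1 array of WT ageing that listed it. The 12-month values averaged 2.34 ± 0.09 (SD, n = 3 arrays) and did not overlap with those at 3 months. Before centring they did, at 1.41, 1.43 and 0.73 at 12 months and 0.62, -0.81 and 1.55 at 3 months, and centred on the abundant transcripts the 12-month mean was 0.57. Its 2 probes had the same sign on all 5 arrays that listed both. Stxbp5, or tomosyn-1, binds SNAREs and restrains release, and was chosen for description after its values were seen. It was at 2.78, 3.72 and 2.73 in genotype at 12 months, at 2.65 and 3.35 in genotype at 3 months, and at -0.05 on 1 array of WT ageing. With only 1 array of WT ageing, neither gene entered the main test. Without the filter on missing values, Napb had a fitted log2 ratio of 2.41 ± 0.74 (SE, limma adjusted p = 0.248) and Stxbp5 one of 3.01 ± 0.84 (SE, limma adjusted p = 0.245) in genotype at 12 months, each with n = 3 arrays.

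The upstream sequences of Syn1, Stx1a, Napb and Stxbp5 are printed because Syn1 and Stx1a lay low together in the first 2 comparisons and Napb and Stxbp5 lay high together in the third, a choice made after the values were seen. Each holds the 250 bases before the annotated start, 5′ to 3′ on the gene's strand, from RefSeq on build GRCm38.p6. They lie at chrX:20920919-20921168 (minus strand) for Syn1, chr5:135023232-135023481 (plus) for Stx1a, chr2:148732421-148732670 (minus) for Napb and chr10:9901041-9901290 (minus) for Stxbp5. Capitals mark 3 motifs searched on both strands. They are TTCAGCACC, the left part of the RE1 element that the repressor REST binds; TGACGTCA, the cyclic AMP response element; and GGGCGG, the GC box bound by Sp1.
Syn1: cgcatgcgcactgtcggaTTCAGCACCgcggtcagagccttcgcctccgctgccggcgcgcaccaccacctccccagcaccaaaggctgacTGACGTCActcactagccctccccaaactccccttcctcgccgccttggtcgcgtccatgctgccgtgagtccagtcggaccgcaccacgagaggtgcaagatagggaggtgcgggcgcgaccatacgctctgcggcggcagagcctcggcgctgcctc
Stx1a: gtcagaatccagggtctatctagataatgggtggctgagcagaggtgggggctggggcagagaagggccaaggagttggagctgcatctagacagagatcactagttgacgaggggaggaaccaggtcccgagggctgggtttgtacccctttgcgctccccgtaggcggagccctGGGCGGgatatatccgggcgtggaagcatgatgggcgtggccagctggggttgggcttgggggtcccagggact
Napb: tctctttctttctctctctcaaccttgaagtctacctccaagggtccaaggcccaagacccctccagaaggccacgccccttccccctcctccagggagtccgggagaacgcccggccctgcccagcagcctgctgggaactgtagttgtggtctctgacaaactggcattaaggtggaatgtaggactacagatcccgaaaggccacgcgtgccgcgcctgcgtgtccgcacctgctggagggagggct
Stxbp5: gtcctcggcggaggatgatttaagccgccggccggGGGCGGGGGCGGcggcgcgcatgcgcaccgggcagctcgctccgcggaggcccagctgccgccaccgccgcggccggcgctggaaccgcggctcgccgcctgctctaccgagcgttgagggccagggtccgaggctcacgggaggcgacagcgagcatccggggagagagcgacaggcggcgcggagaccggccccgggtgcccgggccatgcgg
The Syn1 window holds the RE1 part 232 to 224 bases before the start and the cyclic AMP response element 159 to 152 bases before it. The Stx1a window holds a GC box 74 to 69 bases before the start, the Stxbp5 window holds GC boxes 215 to 210 and 209 to 204 bases before it, and the Napb window holds none of the 3 motifs. Among 32851 mouse windows of the same length, 0.301% held the RE1 part, 1.55% the cyclic AMP response element and 32.7% a GC box. Of the 58 members with an entry, 1, 1 and 40 held them. The motifs were chosen after the sequences were seen, and a match is a description of letters.

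Nsf, the ATPase that disassembles SNARE complexes, was at -0.72, -1.08 and -0.35 in WT ageing, at 0.21 and 2.44 in genotype at 3 months, and at 2.11 and 1.38 in genotype at 12 months. Its 3 WT ageing values were above 0 before centring, so their sign depends on it. Cplx3, a complexin best known from retina, was at 2.18, 1.38 and 0.83 in WT ageing, at -1.38 and -2.77 in genotype at 3 months, and at -0.22, 1.49 and -2.68 in genotype at 12 months. Cplx1, the main complexin of many fast synapses, was at 1.58 and 1.06 in genotype at 12 months, and at -1.50, -0.52 and -0.14 in genotype at 3 months. The Cplx1 values of the 2 ages did not overlap under this centring, but did before it, at 0.71 and -0.65 at 12 months and -0.65, -1.36 and 0.82 at 3 months. The gene was listed on only 1 array of WT ageing and was not tested. Stxbp3a, or Munc18c, a broadly expressed partner of syntaxins, was at 1.41, 1.47 and 1.70 in genotype at 3 months, and at 1.23 and 3.87 in WT ageing. Dnm1 encodes dynamin-1, which pinches off recycling vesicles. It was at 1.61 and 1.75 in WT ageing, at 0.74 and 0.83 in genotype at 3 months, and at 0.06 and -1.12 in genotype at 12 months. The Dnm1 values of the 3 comparisons did not overlap, and none of its fits had an unadjusted p under 0.05.

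The 17 synaptotagmins, of which 5 were tested, had array values between -4.67 and 5.40. Syt1, the calcium sensor of fast release, was at -2.29, -2.69 and -3.94 in WT ageing, at 0.96, 1.71 and 3.25 in genotype at 3 months, and at 2.87 and 2.03 in genotype at 12 months. WT ageing was below 0 on 3 of 3 arrays and both genotype comparisons were above 0 on every array listed. With arrays centred on the abundant transcripts 1 of the 2 arrays at 12 months was below 0. The fitted log2 ratio of Syt1 was -2.74 ± 0.78 in WT ageing (SE, n = 3 arrays, limma adjusted p = 0.159), 2.22 ± 0.78 in genotype at 3 months (SE, n = 3 arrays, limma adjusted p = 0.214) and 3.18 ± 1.04 in genotype at 12 months (SE, n = 2 arrays, limma adjusted p = 0.162). Both arrays of genotype at 12 months that listed Syt1 were of 3xTG mouse 4. The 2 probes of Syt1 disagreed, however. In genotype at 3 months one probe was at -1.86 and -0.74 on arrays 1 and 2, where the other was at 3.77 and 4.16, and only the second was listed on array 3. In WT ageing both probes were below 0 on the 1 array that listed both.

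Syt4, a synaptotagmin that does not bind calcium like Syt1, was at 0.78, 1.61 and 3.08 in WT ageing, at -0.05 and 0.08 in genotype at 3 months, and at 2.93, 1.09 and 1.25 in genotype at 12 months. It was above 0 on all 3 arrays of WT ageing and of genotype at 12 months. Its fitted log2 ratio was 1.54 ± 0.81 in WT ageing (SE, n = 3 arrays, limma adjusted p = 0.463) and 1.50 ± 0.81 in genotype at 12 months (SE, n = 3 arrays, limma adjusted p = 0.355). Its 2 probes had the same sign on 1 of the 5 arrays that listed both. With the better-listed probe alone the value for genotype at 12 months was -0.96, and with arrays centred on the abundant transcripts it was -0.23. Syt16, which lacks the residues that bind calcium, was at 0.86, 1.05 and 1.02 in WT ageing and at 1.30, 1.82 and 2.62 in genotype at 3 months. Syt5 was at 1.55, 3.11 and 2.44 in genotype at 3 months, and Syt3 at 0.17, 3.36 and 0.28 in genotype at 12 months. All of these were above 0, and the Syt16 values of the 2 comparisons overlapped before centring. Syt15 was at -4.04 and -3.17 in genotype at 12 months, and its fitted log2 ratio was -3.62 ± 1.23 (SE, n = 2 arrays, limma adjusted p = 0.177). Both of these arrays had WT mouse 24 as the reference. Of the synaptotagmins with means over at least 2 arrays, 8 of 11 were above 0 in WT ageing, 4 of 9 in genotype at 3 months and 8 of 9 in genotype at 12 months. Of all genes so listed, 48.4%, 49.4% and 57.2% had means above 0. With arrays centred on the abundant transcripts, 1 of the 9 synaptotagmins remained above 0 in genotype at 12 months, against 22.8% of all genes.

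The 12 active zone and Rab3 genes had array values between -5.08 and 3.85, and 2 were tested. Pclo, which encodes the scaffold Piccolo, was at 1.25, 1.12 and 0.42 in WT ageing and at 1.09 and 0.65 in genotype at 3 months. Bsn, which encodes Bassoon, was at 0.43 and 1.54 in WT ageing and at 0.35 and -0.19 in genotype at 12 months. All these Pclo values were above 0, while those of Bsn lay on both sides of it in the third comparison. The first 2 Pclo values of WT ageing came from 1 probe and the third from the other. On the 1 array of genotype at 12 months that listed Pclo, its 2 probes were at -0.08 and 3.17. Rab3d, a vesicle GTPase also found in secretory cells, was at 1.71, 1.06 and 2.61 in WT ageing. Rab3a, the main Rab3 of brain vesicles, was at 0.30, 1.43 and 0.60 in genotype at 12 months, where without centring 1 array or more lay below 0. Unc13a, or Munc13-1, primes vesicles, and was at -0.61, -1.10 and -3.66 in genotype at 12 months and at -0.14 and -0.40 in WT ageing. It was listed on 1 array of genotype at 3 months and was not tested. Rims1, which encodes the scaffold RIM1, was at -0.88 and -0.85 in WT ageing. Some values of a gene lay far apart, with Rab3b at -4.99 and 0.62 and Rims2 at 1.84 and -5.08 in genotype at 3 months.

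The 9 vesicle proteins and glutamate transporters had array values between -3.22 and 3.83, and 1 was tested. Syn1 encodes synapsin-1, which ties vesicles to the actin skeleton. It was at -3.22 and -2.67 in WT ageing, at -2.66, -1.26 and -2.79 in genotype at 3 months, and at 0.07, 0.09 and -0.28 in genotype at 12 months. As with Stx1a, the first 2 comparisons lay far below 0 and did not overlap with the third relative to the array medians. Before centring they did, at -0.88 and -0.71 in WT ageing and -0.80, -0.78 and -1.99 in genotype at 12 months. With arrays centred on the abundant transcripts the fitted log2 ratio of Syn1 in genotype at 12 months was -1.85 ± 0.73 (SE, n = 3 arrays, limma adjusted p = 0.194). The fitted log2 ratio of Syn1 was -3.25 ± 1.07 in WT ageing (SE, n = 2 arrays, limma adjusted p = 0.200) and -2.37 ± 0.76 in genotype at 3 months (SE, n = 3 arrays, limma adjusted p = 0.186). Both arrays of WT ageing that listed Syn1 had WT mouse 16 as the reference. The 2 Syn1 probes differed by at most 0.53 on the 7 arrays that listed both, the closest match among the members with several probes. Sv2a, a vesicle glycoprotein that binds the drug levetiracetam, was at -1.53, -0.57 and -0.46 in WT ageing and at 1.64, 2.64 and 0.17 in genotype at 12 months. Without centring, neither comparison had all its Sv2a values on 1 side of 0. Syngr3, a synaptogyrin of vesicles, was at 0.22, 1.29 and 1.06 in WT ageing and at 1.41 and 2.08 in genotype at 3 months. Syp, or synaptophysin, a widely used marker of terminals, was at -0.72, 0.29 and -0.24 in genotype at 12 months, on both sides of 0. Before centring these 3 values were below 0, at -1.59, -0.585 and -1.95, as they were when centred on the abundant transcripts. The glutamate transporters were thinly listed, with Slc17a6 at 2.11 and -1.56 in WT ageing and Slc17a7 on 1 array in all.

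**Figure D3:**
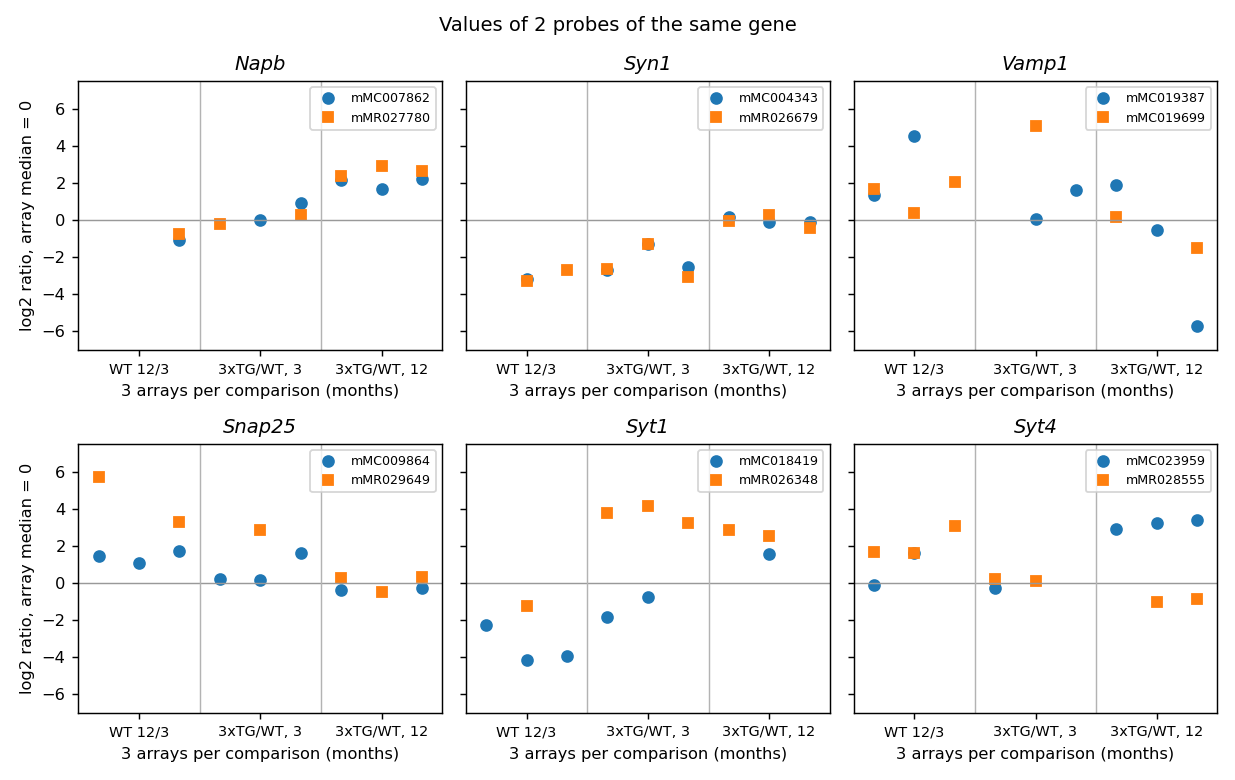
Centred log2 ratio (vertical axis) of the 2 probes of 6 release genes on the 9 arrays (horizontal axis, 3 arrays for each of the 3 comparisons), with a colour and shape for each probe. The probes of Syn1 differ by at most 0.53 and those of Napb by at most 1.28, whereas those of Syt1 and Syt4 lie on opposite sides of 0 on several arrays.

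Agreement between probes of a gene was uneven over the set. The 17 probe pairs with a shared array gave 51 values listed by both probes, of which 31 had the same sign and 20 opposite signs. Vamp1 had the same sign on 5 of 5 arrays with a gap of up to 5.01, and Snap25 on 3 of 5 with a gap of up to 4.24. The widest gap was 9.22, between the probes of Stxbp4. The Syn1 probes had the same sign on 5 of 7 arrays, and both lay within 0.30 of 0 on the arrays where signs differed.

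For WT ageing, the question was which release genes change with age in WT mice. Of the 14 members listed on all 3 arrays, 8 were above 0 on each (Cplx3, Pclo, Rab3d, Snap25, Syngr3, Syt16, Syt4 and Vamp1), against 15.6% of all genes so listed. Below 0 on each were 3 (Nsf, Sv2a and Syt1), against 23.3% of all genes. Both other centrings raise every value of these 3 arrays, so the 8 could not turn, and of the 3 below 0 Syt1 alone stayed below 0 on each array. Over the 42 members listed on at least 2 arrays, 28 means were above 0, with a median of 0.29, against 48.4% above 0 and a median of -0.06 for all genes. Among the 19 tested, 11 fitted values were above 0, with a median of 0.22, against 46.3% above 0 and a median of -0.15 for all genes tested. The other 27 presynaptic and vesicle cycle genes tested had 15 above 0 and a median of 0.26, and none was called. On the same arrays the oligodendrocyte markers were below 0 in 6 of 6 genes listed on at least 2 arrays, with a median of -1.16. The neuronal markers were above 0 in 2 of 7, with a median of -1.62. Pyramidal and granule cell markers were above 0 in 3 of 8 and interneuron markers in 1 of 5, with medians of -0.09 and -0.24. Astrocyte markers were above 0 in 3 of 7, choroid plexus markers in 0 of 3 and microglia markers in 4 of 5. Without centring, 4 of 6 oligodendrocyte and 4 of 7 neuronal markers were above 0, against 84.9% of all genes so listed. The part of cell composition in the result was not tested.

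For genotype at 3 months, the question was which release genes differ between young 3xTG and young WT mice. Of the 16 members listed on all 3 arrays, 6 were above 0 on each (Snap25, Stx5a, Stxbp3a, Syt1, Syt16 and Syt5), against 28.4% of all genes, and 4 were below 0 on each (Cplx1, Stx1a, Syn1 and Vamp2), against 19.8% of all genes. Of these, Stx5a, Syt1, Syt16, Syt5, Stx1a and Syn1 kept their sign on every array under both other centrings. Over the 40 members listed on at least 2 arrays, 25 means were above 0, with a median of 0.45, against 49.4% and -0.02 for all genes. Among the 19 tested, 8 were above 0, with a median of -0.14, against 52.9% above 0 and a median of 0.12 for all genes tested. The median of the pyramidal and granule cell markers was -0.14, 2.64 and 1.93 on the 3 arrays, and that of the members was 0.01, 0.86 and 0.34. The 2 arrays of mouse 22 were thus the higher ones for both lists. They were also the higher ones for the abundant transcripts, at -0.14, 1.51 and 0.89, and for the choroid plexus markers, at 0.26, 1.79 and 1.51. So they were for the other presynaptic genes, at -0.11, 0.06 and 0.43. The same held for the microglia markers, at -1.11, 2.03 and 0.16, and the interneuron markers, at -1.84, -0.74 and -0.06. These 2 marker lists had as few as 2 and 1 genes on an array. The neuronal markers, at 0.14, 2.01 and 0.11, were not higher on both, nor were the astrocyte and oligodendrocyte markers. The part of cell composition in these medians was not tested.

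For genotype at 12 months, the same question was asked of older mice. Of the 22 members listed on all 3 arrays, 9 were above 0 on each (Napb, Rab3a, Stx12, Stx7, Stxbp5, Sv2a, Syt3, Syt4 and Vamp4), against 30.4% of all genes, and 2 were below 0 on each (Stx6 and Unc13a), against 16.3% of all genes. Both other centrings lower every value of these 3 arrays, so Stx6 and Unc13a could not turn. Of the 9 above 0, Napb, Stx12, Stx7, Stxbp5 and Vamp4 stayed above 0 on each array. Over the 45 members listed on at least 2 arrays, 25 means were above 0, with a median of 0.10, against 57.2% and 0.31 for all genes. Among the 19 tested, 8 were above 0, with a median of -0.15, against 60.0% above 0 and a median of 0.48 for all genes tested. The abundant transcripts (ribosomal, respiratory chain, proteasome and glycolysis genes) had 39 of 44 fitted values above 0, with a median of 1.86. On the 3 arrays the median of the members was 0.15, 0.70 and 0.11, and that of the abundant transcripts was 2.06, 2.06 and 1.21. With arrays centred on the abundant transcripts, 3 of the 19 members were above 0, against 25.7% of all genes tested. Without centring 6 of the 19 were, against 37.0% of all genes tested. As both centrings lower these values, a median of the 19 that stayed below 0 adds no support. Without the third array, 12 of the 19 were above 0, with a median of 0.28. That array is the only one of this comparison with 3xTG mouse 7 and the only one with the test RNA in Cy5. Mouse and dye cannot be told apart there.

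**Figure D4:**
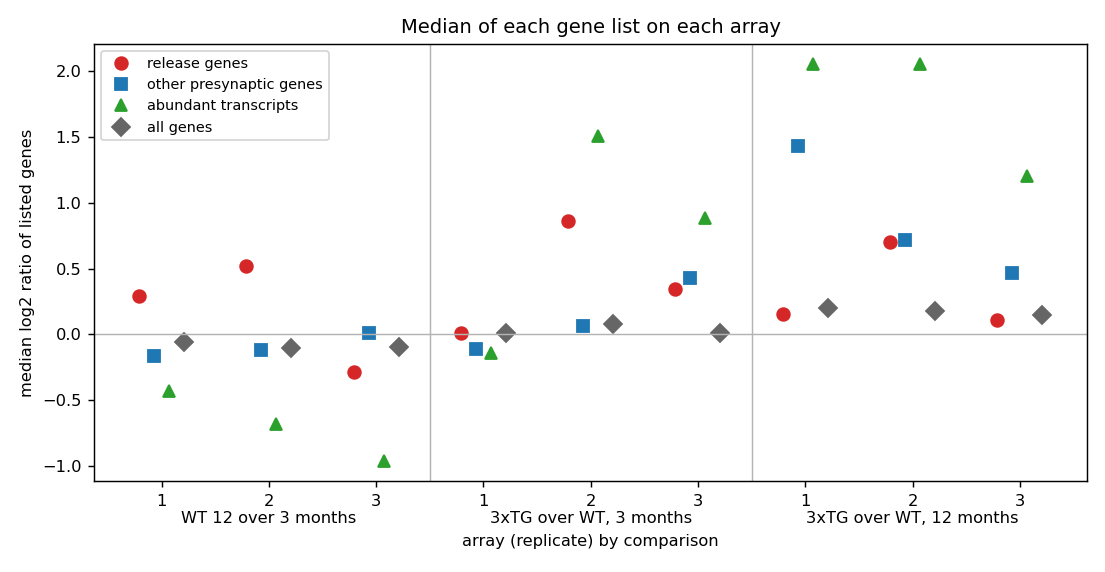
Median centred log2 ratio (vertical axis) of the release genes, other presynaptic genes, abundant transcripts and all genes listed on each array (horizontal axis, 3 arrays in each comparison). The release genes stay between -0.29 and 0.86 on the 9 arrays, while the abundant transcripts lie between 1.21 and 2.06 on the arrays of genotype at 12 months.

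**Figure D5:**
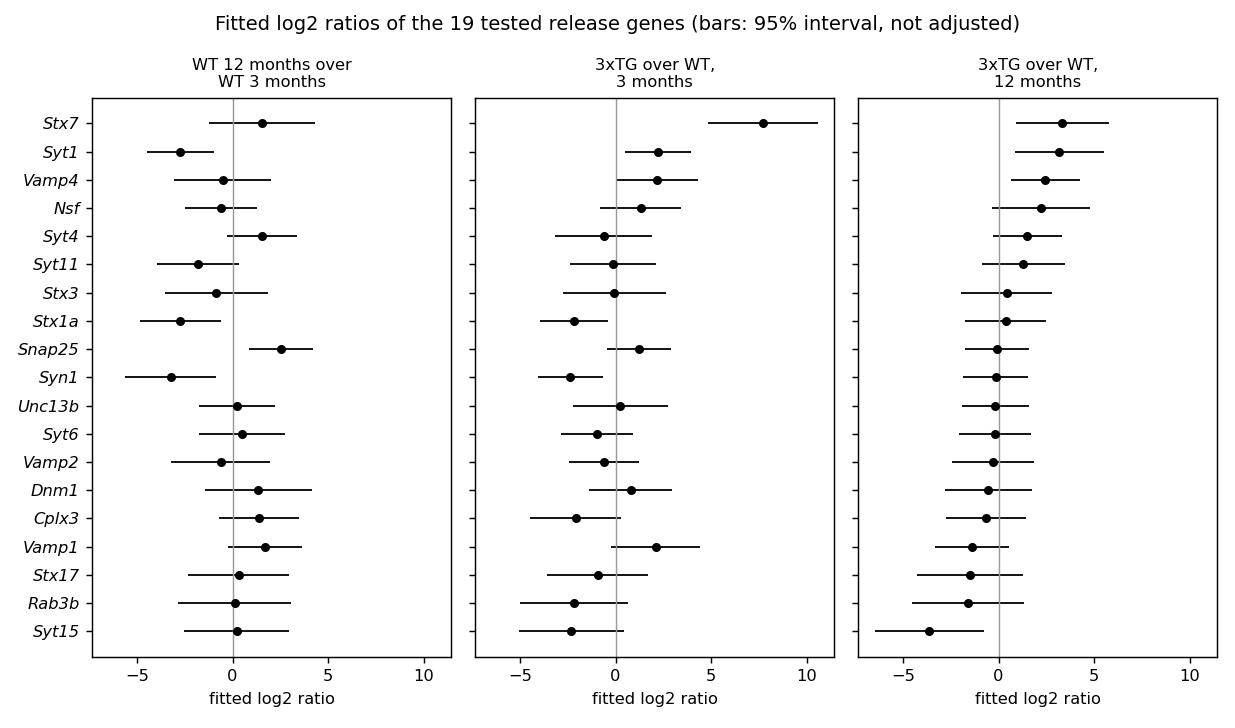
Fitted log2 ratio (horizontal axis) of the 19 tested release genes (rows) in each comparison, as points with 95% intervals that are not adjusted for the number of genes. Intervals of Stx7, Syt1 and Vamp4 lie above 0 in both genotype panels, those of Syn1 and Stx1a lie below 0 in the WT ageing and 3-month panels, and none of these values passed the adjusted test.

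The difference between the genotype comparisons, 12 months minus 3 months, was tested directly. No member passed, nor did any gene (0%). At an unadjusted p under 0.05 there were 2 members, against 9.43% of all genes, with 0 above 0, against 6.9%, and 2 below 0, against 2.54%. These were Stx7, with a difference in log2 ratio of -4.38 ± 1.65 (SE, n = 3 and 2 arrays, limma adjusted p = 0.510), and Vamp1, with -3.49 ± 1.35 (SE, n = 3 and 2 arrays, limma adjusted p = 0.510). Stx1a had a difference of 2.53 ± 1.21 (SE, n = 2 and 3 arrays, limma adjusted p = 0.540) and Syn1 one of 2.22 ± 1.05 (SE, n = 3 and 3 arrays, limma adjusted p = 0.535). Their 95% intervals ran from -0.23 to 5.29 for Stx1a and from -0.14 to 4.58 for Syn1. The 2 arrays at 3 months for Stx7 and Vamp1 were of 3xTG mouse 22, and those at 12 months for Stx1a shared WT mouse 24. The 28 members listed on at least 2 arrays at each age were spread over all 4 combinations of sign. Both means were above 0 in 8 (28.6%), against 36.0% of all genes, and both were below 0 in 7 (25.0%), against 23.2% of all genes. A mean above 0 at 12 months with one below 0 at 3 months was found in 6 (21.4%), against 24.8% of all genes, and the opposite in 7 (25.0%), against 16.0% of all genes. Those above 0 at both ages were Napb, Nsf, Stx12, Stx7, Stxbp5, Syt1, Syt4 and Vamp4.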

How the data were processed

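RNA from 8 mice was linearly amplified and hybridised to 9 arrays of 2 colours, per the labels' protocols. Cy5 labelled the test RNA of 3 arrays and Cy3 that of 6. The deposited log ratios of 29922 probes were read as log2, since the base is not stated, and their background correction, filter and normalization are not given in the sources read. Scanner files were not analysed here. Probe symbols came from the platform annotation, updated through RefSeq tables (13905 of 16675 symbols current, 2728 updated, 42 kept), and 8902 probes have none. The 12 genes Rab30 to Rab39 were not counted as Rab3 family. Each array was centred on its median and probes were averaged per gene. One linear model per gene (R 4.3.3, limma 3.58.1) had a coefficient for each comparison, a dye term and a covariance for shared mice. Variance between mice was 0.115 times that between arrays, by restricted maximum likelihood on 516 complete genes. This ratio was not stable. It was 0.828 with 1 probe per gene, on 112 complete genes, and 0.0092 to 0.285 when 1 array was left out. Of 3980 genes with values on at least 2 arrays of each comparison, 3944 could be fitted. Variances were moderated, and p-values were two-sided and adjusted by Benjamini-Hochberg over these genes. Tables used pandas 2.3.3 and numpy 2.4.6 under Python 3.11.15. The procedure was tested on simulated data of 3944 genes with the design of genotype at 12 months and a variance ratio of 0.5, where 4.85% of unchanged genes had an unadjusted p under 0.05.

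Array values were given for the member listed on all 9 arrays. Also given were up to 5 tested members per comparison of smallest p with 1 sign on all 3 arrays (3 qualified at 12 months). Core release genes with at least 2 arrays in a comparison were given except Cplx2, as were some members whose probes disagree. Stx3, Stx8, Stxbp4 and Syt6, whose probes disagree, have no array values here. Some comparisons with 1 listed array were left out, as for Rab3a and Syp in WT ageing. Other genes were chosen after their values were seen. The members and lists were chosen with earlier results of these data known. Each result was recomputed with other centrings, variance models, probe rules and filters, and without each array. Syt1 could not be tested with 1 probe per gene, as the probe taken was listed on 1 array at 12 months. Part of the strain description is not reported here.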

Additional observations from a re-analysis of the deposited data

How the results depend on the processing

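No member was called in any comparison under 17 of the 18 alternative settings; with arrays treated as independent, Stx7 was called in genotype at 3 months (7.72, limma adjusted p = 0.047), and 35 genes in WT ageing and 23 in genotype at 3 months were called in all. Without a dye term 47 and 11 genes were called in these comparisons. Without centring, 3 of 19 members were below 0 in WT ageing, with medians of 2.09 there, -1.29 in genotype at 12 months and -1.30 for the difference between ages, where 4 were above and 15 below 0. When the abundant transcripts set the centre, the medians were 0.70, -1.20, -1.85 and, for the difference, -0.71, with 3 members above 0 at 12 months and 4 above and 15 below 0 for the difference. All genes tested had medians of -0.15, 0.12 and 0.48 in the 3 comparisons, 1.74, 0.39 and -0.69 without centring, and 0.51, -0.61 and -1.27 centred on the abundant transcripts. Of them, 83.8% were above 0 in WT ageing without centring. For the difference, 30.0% were above 0 without centring and 36.3% centred on the abundant transcripts. Without the filter on missing values, 42 members were tested, with 23 above and 19 below 0 in WT ageing, 25 and 17 at 3 months (median 0.29), 20 and 22 at 12 months, and 24 and 18 for the difference. Of all genes tested that way, 46.7%, 51.0%, 58.9% and 58.6% were above 0. Numbers did not pair the arrays: deviations of arrays with the same number correlated at -0.0813 to 0.0627. With a replicate block, 15 members were tested, none was called, and 7, 7 and 4 were below 0 at 3 months, at 12 months and for the difference. Leaving out 1 array at a time gave 7 to 11 members below 0 and medians of -0.15 to 0.28 at 12 months, with 7 and 0.28 without array 3 of that comparison. Under the same settings Cplx3 in WT ageing ranged from -0.17, without array 1, to 1.80. Syt4 at 12 months was -0.23 centred on the abundant transcripts and -0.96 with 1 probe per gene. Syt1, whose probes disagree, has no value with 1 probe per gene. For the named members, 229 values kept direction and call and 3 changed direction. The cause of these changes was not tested.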
